A study of Mus musculus with 4 samples.

Results

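The angiotensin and endothelin genes are those of 2 blood-pressure-raising peptide systems that act on the heart and its vessels: the precursor Agt, the converting enzyme Ace and the receptor Agtr1a of the first, and the precursor Edn1, the converting enzyme Ece1 and the receptors Ednra and Ednrb of the second. A gene entered when a probe set (a group of array probes read together) carried its symbol and no other. By that rule 6 of the 7 genes were measured, out of 19938 genes with such a probe set. Each of the 6 had a single probe set, and Ednra was not analysed here. All hearts came from mice 1 week after transverse aortic constriction (TAC), surgery that narrows the aorta and makes the left ventricle pump against high pressure. The wild type group (WT TAC) had 1 array, and the MAFbx knockout group (KO TAC) had 3. MAFbx is the muscle ubiquitin ligase subunit encoded by Fbxo32. The comparison asks what its loss does to transcripts in the pressure-loaded heart. There is no array from a heart without constriction, so the effect of TAC itself cannot be read. Strain, age, sex and the way the Fbxo32 allele was made are not stated in the labels, nor is it said outright that each array is a separate animal. The p-values rest on the spread between the 3 knockout samples, moderated toward the spread typical of all genes tested. The single wild type array adds no spread.

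Angiotensinogen is cut by renin to angiotensin I, and angiotensin-converting enzyme (ACE) trims that to angiotensin II, which constricts vessels and drives growth and fibrosis of the heart through the AT1 receptor. Endothelin-1 is made mainly by endothelial cells as a long precursor that furin-type proteases and then endothelin-converting enzyme shorten. It constricts vessels through the ETA receptor of muscle cells, while the ETB receptor of endothelial cells releases nitric oxide and clears the peptide. AT1 and ETA both signal through the Gq class of G proteins, and both systems are classical drivers of pressure-overload hypertrophy.

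Edn1, Ednrb and Ece1, 3 of the 6 measured members, read lower on every knockout array than on the wild type array. So did 24.6% of all genes tested. The start regions of these 3 genes are shown because they are the members that lay on the same side. Each is RefSeq sequence of GRCm38.p6, 250 bases before to 50 after the annotated start, 5′ to 3′ on the strand of the gene. Capitals mark matches, on either strand, to any of 5 short motifs. The motif of the stress-responsive AP-1 factors was searched as TGANTCA. A variant of it known from endothelin genes was searched as TGACTAA. The motif of the GATA factors of heart and endothelium was searched as AGATAA. The TATA box that places the start of many genes was searched as TATAAA. The GC box bound by Sp1 was searched as GGGCGG. No stretch can match both AP-1 forms. Ece1 has 4 annotated windows, and the one farthest upstream is printed.
Edn1, chr13:42301226-42301525, plus strand: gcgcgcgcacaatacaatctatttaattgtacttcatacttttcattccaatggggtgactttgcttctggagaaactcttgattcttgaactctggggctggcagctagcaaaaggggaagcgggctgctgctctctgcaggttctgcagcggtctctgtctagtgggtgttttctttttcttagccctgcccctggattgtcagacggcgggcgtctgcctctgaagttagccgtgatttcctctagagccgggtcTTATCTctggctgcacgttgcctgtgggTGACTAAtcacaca
Ednrb, chr14:103843652-103843951, minus strand: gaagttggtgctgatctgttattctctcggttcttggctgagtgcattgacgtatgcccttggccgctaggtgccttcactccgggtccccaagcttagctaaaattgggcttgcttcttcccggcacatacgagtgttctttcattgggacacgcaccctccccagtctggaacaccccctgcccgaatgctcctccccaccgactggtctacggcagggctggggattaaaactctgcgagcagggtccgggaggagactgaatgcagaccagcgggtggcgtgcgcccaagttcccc
Ece1, chr4:137861987-137862286, plus strand: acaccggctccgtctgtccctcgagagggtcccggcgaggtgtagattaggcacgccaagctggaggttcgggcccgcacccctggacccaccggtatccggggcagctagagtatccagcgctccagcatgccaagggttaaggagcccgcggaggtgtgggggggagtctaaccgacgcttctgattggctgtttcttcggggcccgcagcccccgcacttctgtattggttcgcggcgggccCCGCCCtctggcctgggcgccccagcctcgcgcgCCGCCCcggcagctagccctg

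The Edn1 window held a GATA match on the minus strand at base 9, counting the annotated start as base 1, and an AP-1 variant match at base 37. Where transcription of Edn1 begins in these hearts was not tested. GATA and AP-1 factors are textbook regulators of Edn1 in endothelial cells. A GATA match was present in 11.2% of 32851 start windows of this length, and the AP-1 variant in 2.3%. The Ece1 window printed held 2 GC boxes, a motif found in 35.7% of windows, and the Ednrb window held no match to any of the 5. Of the members that did not lie on the same side, Agt had a TATA match 30 bases before its start, as 13.6% of windows had somewhere, and the upstream Ace window had a TATA match and 4 GC boxes. A match of letters is a description and shows no binding. Agtr1a has no entry in the promoter table.

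Values are log2 expression after RMA (robust multi-array averaging, the authors' processing), so 1 unit is a 2-fold difference, and levels of different genes are not comparable. Fbxo32 gave 7.54 on the wild type array, with 5.65, 5.61 and 5.56 on knockouts 1 to 3, low where the labels say knockout. The deposited table does not place that probe set against the deletion, so the low reading checks the labels only if the probes lie within it. All 8 cardiomyocyte markers, the muscle cell markers that define heart tissue, passed the filter on dim genes (a mean of at least 4.71 over the 4 arrays), as did the 6 members, with a list mean of 12.70 in the wild type and 12.72 to 12.92 in the knockout hearts. The 4 of smallest p, Ryr2, Mybpc3, Myh6 and Tnni3, had log2 fold changes of 0.42, 0.33, 0.14 and 0.16 (limma adjusted p from 0.876 to 0.992). Xist, made from the silenced X chromosome, was low in wild type 1 (4.13) and knockout 3 (3.20) and high in knockout 1 (9.18) and knockout 2 (9.52), and the Y-linked Eif2s3y was the reverse (8.57, 8.49, 3.31 and 3.64 in that order). Knockout 3 alone therefore shares the sex-linked pattern of the wild type array, so its difference from wild type 1 is given below beside the genotype difference. In the limma test, 1 of the 14914 genes passed an adjusted p of 0.05 (0.00671%), and 855 had an unadjusted p under 0.05 (5.73%; 4.05% lower and 1.68% higher in the knockout). Fbxo32 was not the gene that passed adjustment (log2 fold change -1.93, limma adjusted p = 0.0529). None of the 6 members passed either threshold. A gene is called wholly lower here when all 3 knockout values lie under the wild type value, and wholly higher when all 3 lie over it. Of the genes tested 24.6% were wholly lower, 23.9% wholly higher and 51.5% neither, against 3, 0 and 3 of the 6 members. The median log2 fold change, knockout minus wild type, was -0.09 over the 6 and 0.003 over all genes tested. The 6 members do not stand for independent samples, and that count is no test.

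**Figure D1:**
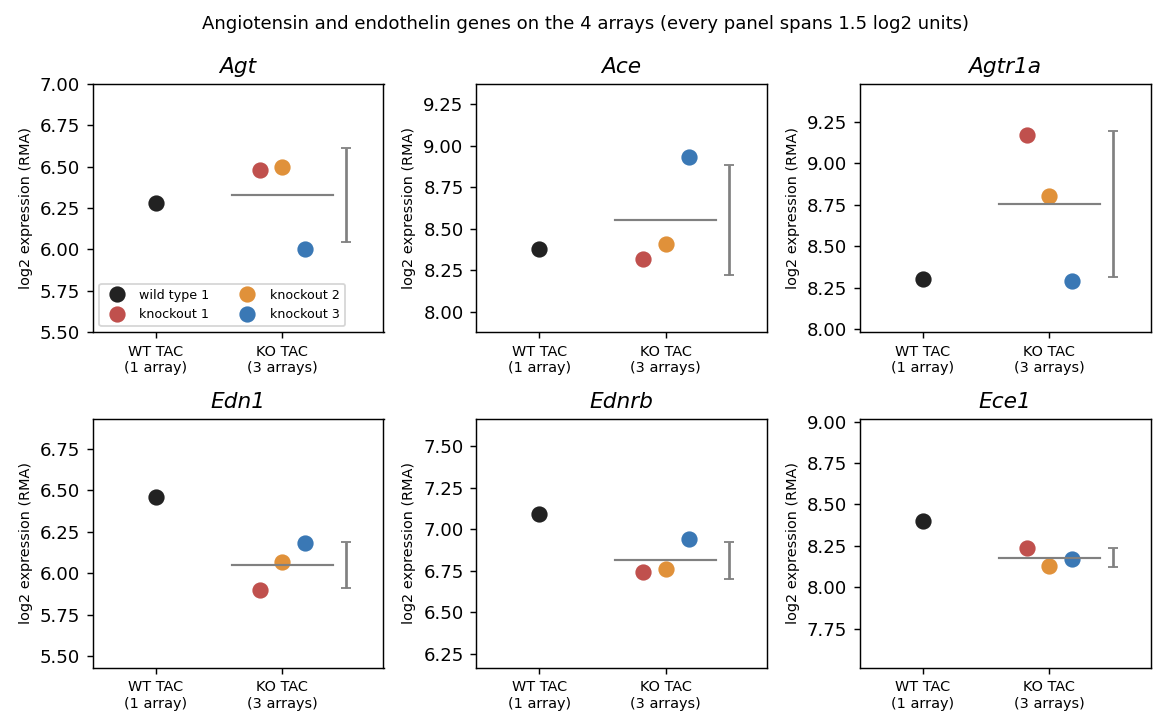
Log2 expression (RMA) of the 6 measured members, with the wild type array on the left and the 3 knockout arrays on the right of each panel. The grey line is the knockout mean and the grey bar its SD (n = 3). Edn1, Ednrb and Ece1 have all knockout points below the wild type point, whereas Agt, Ace and Agtr1a have knockout points on both sides of it.

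Edn1, the gene of the endothelin-1 precursor, gave 6.46 on the wild type array, with 5.90, 6.07 and 6.18 on knockouts 1, 2 and 3. The groups did not overlap, and the knockout arrays spread over 0.28, as much as the gap between the highest of them and the wild type array. The knockout mean was 6.05 ± 0.14 (SD, n = 3). The log2 fold change was -0.41 (SE 0.19, 95% interval -0.86 to 0.04), or 0.753 of the wild type level (interval 0.552 to 1.03). Edn1 did not pass the limma test (unadjusted p = 0.0674, adjusted p = 0.881). Of all genes tested, 6.97% had a lower fold change than Edn1. Knockout 3, the array with the wild type sex-linked pattern, was 0.28 below wild type 1 and gave the smallest of the differences, which reached 0.56 in knockout 1. Without knockout 3 the log2 fold change was -0.475 and the unadjusted p fell to 0.046, with adjusted p from 0.464 to 0.997 over the 11 alternatives. In the fit without knockout 3, 10.6% of all genes tested had an unadjusted p under 0.05.

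Ece1, the membrane metalloprotease that releases active endothelin from its intermediate, read 8.40 in wild type 1 and 8.24, 8.13 and 8.17 in the knockout hearts. The 3 knockout arrays lay within 0.11 of each other, and the highest of them was 0.16 below wild type 1. Just 9.58% of the genes tested varied less between these arrays by SD. Their mean was 8.18 ± 0.06 (SD, n = 3) and the log2 fold change -0.22 (SE 0.17, 95% interval -0.63 to 0.19). Ece1 did not pass the limma test (unadjusted p = 0.242, adjusted p = 0.946). That SE is moderated by the other genes, and from the knockout spread of Ece1 alone it was 0.064. The difference was much the same on each array, at -0.16, -0.27 and -0.23.

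Ednrb, encoding the ETB receptor, read 7.09 in wild type 1 against 6.74, 6.76 and 6.94 in knockouts 1, 2 and 3. All 3 lay below the wild type value, and knockout 3 was the nearest to it, 0.15 lower. The knockout mean of 6.81 ± 0.11 (SD, n = 3) gave a log2 fold change of -0.28 (SE 0.18, 95% interval -0.71 to 0.15), which did not pass the limma test (unadjusted p = 0.172, adjusted p = 0.931). The intervals of Edn1, Ece1 and Ednrb all include equal levels. The lower bounds of the 95% intervals put the knockout level at 0.552, 0.648 and 0.613 of the wild type level, respectively.

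These 3 genes are active in endothelial cells, whose markers are given here. None of the 9 markers was wholly lower and 4 were wholly higher (0% and 44.4%, against 24.6% and 23.9% of all genes tested). The other 5 had knockout values on both sides of the wild type value. The median log2 fold change of the list was 0.23, against 0.003 over all genes tested. The markers named next, those of smallest p, are the 4 wholly higher ones. The mean log2 level of the list was 8.61 in wild type 1 and 8.76, 8.79 and 8.97 in knockouts 1, 2 and 3. Kdr, the main VEGF receptor, read 9.02 in wild type 1 and 9.32, 9.39 and 9.46 in the knockout hearts, and Esam, an endothelial adhesion molecule, 7.82 against 8.08, 8.36 and 8.27 (limma adjusted p = 0.885 and 0.880). Tie1 and Tek, receptors of the angiopoietin system, stood at log2 fold changes of 0.35 and 0.29 (adjusted p = 0.923 and 0.938). In RNA from whole tissue, fewer cells of a type and less RNA per cell cannot be told apart. The part of endothelial cells in the values of Edn1, Ednrb and Ece1 was not tested.

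The 9 other endothelin genes tested were the peptide genes Edn2 and Edn3, further converting enzymes and the furin family. Of these 3 were wholly lower and 2 wholly higher (33.3% and 22.2%, against 24.6% and 23.9% of all genes tested). The median log2 fold change of the 9 was -0.08. Pcsk6, which encodes the proprotein convertase PACE4, was the 1 gene of this list with an unadjusted p under 0.05. Wild type 1 read 8.06 and knockouts 1, 2 and 3 read 9.08, 8.49 and 8.75. The log2 fold change was 0.71 (SE 0.25), with an unadjusted p = 0.0237 and an adjusted p = 0.729 in limma. Knockout 3 exceeded wild type 1 by 0.69, close to the mean difference. Without knockout 1 the unadjusted p was 0.0551 and without knockout 3 it was 0.076, at log2 fold changes of 0.56 and 0.725.

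Edn3, the gene of endothelin-3, a peptide that acts chiefly on the ETB receptor, had the widest difference among the endothelin genes. Wild type 1 (5.97) and knockout 3 (6.22) were low, and knockout 1 (7.38) and knockout 2 (7.62) were high. The high arrays are those with high Xist. The log2 fold change was 1.10 (SE 0.49, 95% interval -0.06 to 2.26), and the gene did not pass the limma test (unadjusted p = 0.0591, adjusted p = 0.880). The log2 fold change was 1.53 without knockout 3 and 0.83 without knockout 2. The part of sex in this difference, or of other traits that divide these arrays, was not tested. Edn2 read 5.35 in wild type 1 and 5.34, 5.20 and 5.24 in the knockout hearts, and Ece2, the second converting enzyme, 5.98 against 5.86, 6.08 and 6.02. Furin, which makes the first cut in the endothelin precursor, read 9.17 against 9.21, 9.07 and 9.0. Ecel1, Mmel1, Pcsk5 and Pcsk7 had log2 fold changes from -0.18 to -0.05. For Edn2, Ece2 and Furin the log2 fold changes lay between -0.09 and 0.01, and the smallest limma adjusted p was 0.994.

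**Figure D2:**
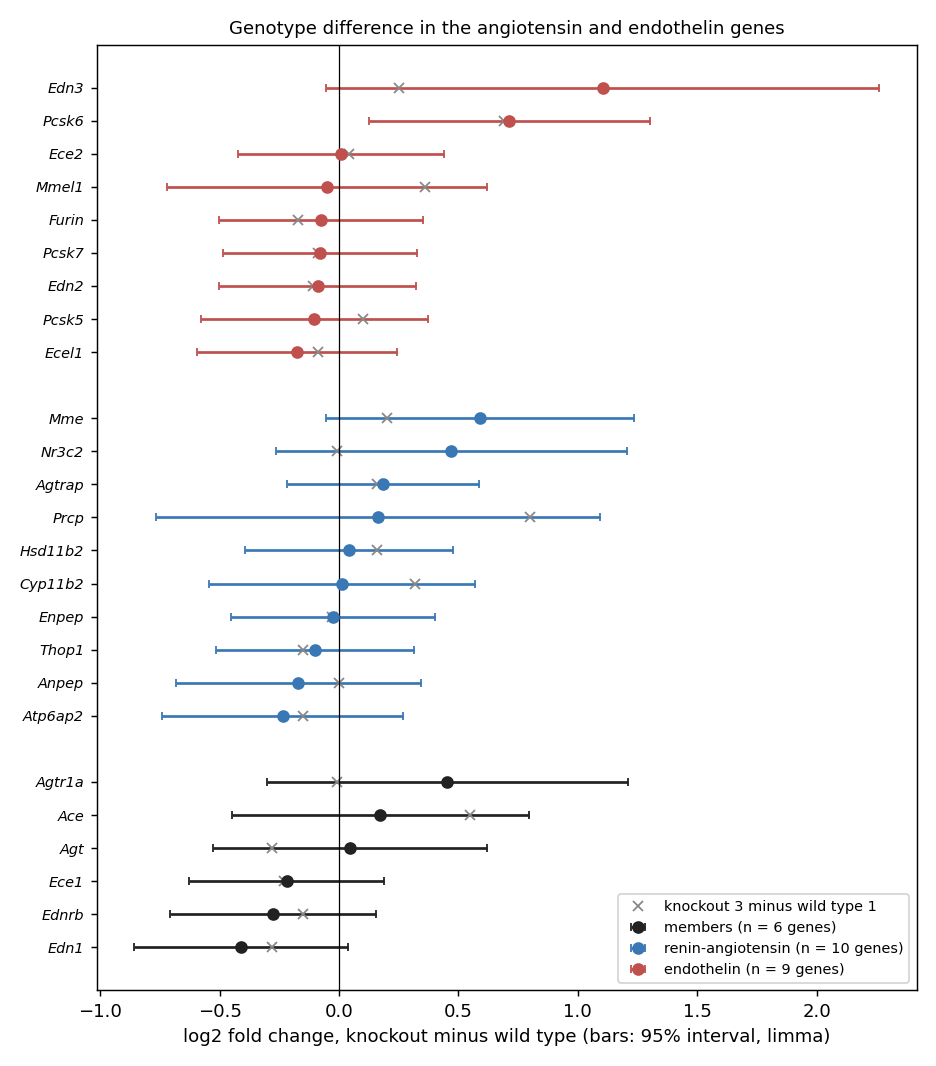
Log2 fold change, knockout minus wild type, of the 6 members (black), 10 other renin-angiotensin genes (blue) and 9 other endothelin genes (red), with 95% limma intervals. Grey crosses mark knockout 3 minus wild type 1. Pcsk6 is the 1 gene whose interval leaves out 0, and the crosses of Edn3, Mme, Nr3c2 and Agtr1a lie nearer to 0 than their means. Among the other members, the crosses of Edn1 and Ednrb also lie nearer to 0, and those of Agt, Ace and Ece1 lie farther from it.

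Agt, the angiotensin precursor, gave 6.28 on the wild type array, 6.48 and 6.50 on knockouts 1 and 2, and 6.0 on knockout 3. The wild type value lay between the knockout values. The knockout mean was 6.33 ± 0.28 (SD, n = 3), and the log2 fold change was 0.05 (SE 0.24, 95% interval -0.53 to 0.62, limma adjusted p = 0.996). The sign turned when a single array was left out, to -0.03 without knockout 1 and -0.04 without knockout 2, and the value was 0.21 without knockout 3. Agt gave no genotype difference beyond the spread of the knockout hearts.

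Ace, the gene of angiotensin-converting enzyme, stood apart in a single heart. It read 8.38 in wild type 1, 8.32 in knockout 1 and 8.41 in knockout 2, within 0.09 of each other, and 8.93 in knockout 3. The knockout mean was 8.55 ± 0.33 (SD, n = 3), with a log2 fold change of 0.17 (SE 0.26, 95% interval -0.45 to 0.80, limma adjusted p = 0.992). Without knockout 3 it was -0.015, and without knockout 1 or 2 it was 0.29 or 0.245. The difference therefore rests on knockout 3, 0.55 above wild type 1. The mean levels of the fibroblast and endothelial marker lists were also highest on that array, where 6 of the 9 markers of each list had their highest value. The mean log2 level of 9 fibroblast markers was 10.22 on that array, 9.81 in wild type 1, 9.18 in knockout 1 and 9.54 in knockout 2. Of the 4 fibroblast markers of smallest p, Col1a1, collagen I (12.11, 11.58, 10.10 and 10.66 in the same order), and Lum, lumican (10.18, 9.43, 9.67 and 10.08), were highest in knockout 3. Fbln2, fibulin 2, was not (10.07, 10.09, 9.32 and 9.29), nor was Dcn, decorin (12.28, 11.94, 12.02 and 12.36). Of the fibroblast markers 2 were wholly lower and 2 wholly higher (22.2% each, against 24.6% and 23.9% of all genes tested). The part of these cell types in the Ace value was not tested.

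Agtr1a, the gene of the main angiotensin II receptor of mice, varied most among the members. Wild type 1 (8.30) and knockout 3 (8.29) were nearly equal, while knockout 1 gave 9.17 and knockout 2 gave 8.80. The knockout hearts spanned 0.88, and 96.4% of the genes tested had a smaller SD among them. The knockout mean was 8.75 ± 0.44 (SD, n = 3), and the log2 fold change 0.45 (SE 0.32, 95% interval -0.30 to 1.21) did not pass the limma test (unadjusted p = 0.199, adjusted p = 0.940). It was 0.245 without knockout 1, 0.43 without knockout 2 and 0.685 without knockout 3. The unadjusted p without knockout 3 was 0.0377, in a fit where 10.6% of all genes tested were under 0.05. The adjusted p ran from 0.448 to 0.997 over the 11 alternatives. The hearts high in Agtr1a were those high in Xist, and knockout 3 differed from wild type 1 by -0.01. Over all genes tested, knockout 3 was also closest to wild type 1 (Pearson r = 0.984, against 0.974 and 0.978 with knockouts 1 and 2). With this split the genotype cannot be told apart from the sex-linked pattern in knockouts 1 and 2. Other traits that knockouts 1 and 2 share were not tested. Agtr1b, the close copy of Agtr1a, was not analysed here, and cross-hybridisation between them was not tested.

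The genes with the profile most like that of Agtr1a over the 4 arrays were Kcnj3, Slc38a3, Pla2g5, Klf15 and Aqp1, at a root mean square distance of 0.029 to 0.045 log2 units after each gene was centred on its mean. Kcnj3, an atrial potassium channel subunit, gave 7.21 on the wild type array, with 8.16, 7.76 and 7.25 on knockouts 1, 2 and 3. Klf15, a transcription factor of heart muscle that restrains hypertrophic growth, read 8.04 against 8.89, 8.48 and 8.07. The water channel gene Aqp1 read 9.21 against 10.11, 9.76 and 9.13. Each is near the wild type value in knockout 3 and highest in knockout 1. With 4 arrays such likeness is common, and 266 of the genes tested lay within 0.15 of Agtr1a. For Ace the nearest were Bmp7, Tmem255b, Pigh, Itga1 and Msgn1 (0.018 to 0.033), with 785 genes within 0.15. Itga1, a collagen-binding integrin subunit, read 8.11 in wild type 1 and 7.96, 8.08 and 8.61 in the knockout hearts.

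**Figure D3:**
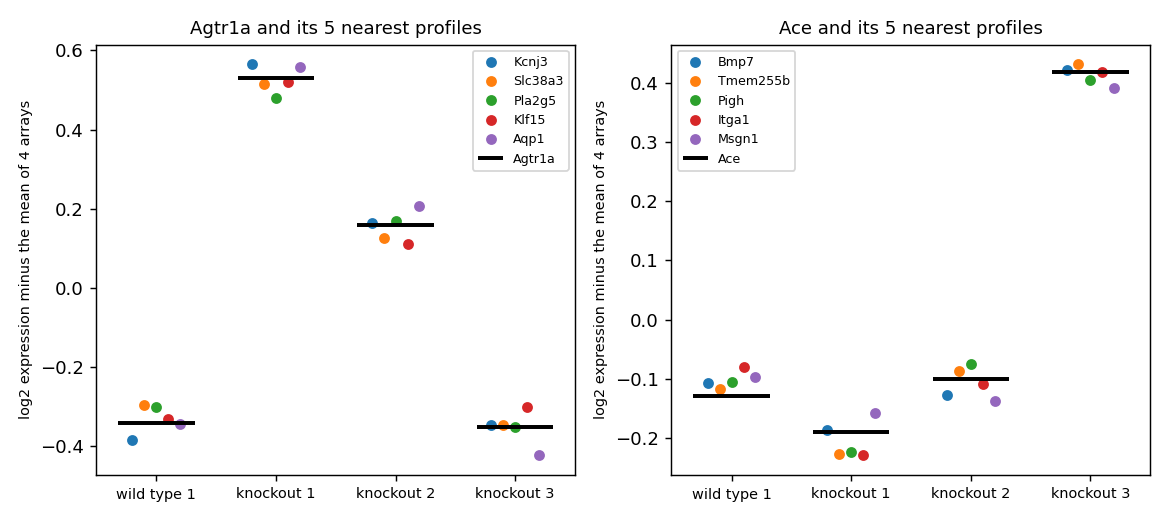
Log2 expression minus the mean of the 4 arrays for Agtr1a (left) and Ace (right), drawn as black bars, and for the 5 genes with the nearest profile, drawn as points. Agtr1a and its neighbours are high in knockouts 1 and 2, and Ace and its neighbours are high in knockout 3 alone.

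Of 10 further genes of the renin-angiotensin and aldosterone pathway that were tested, 2 were wholly lower and 2 wholly higher. That is 20% each, against 24.6% and 23.9% of all genes tested. The 10 had a median log2 fold change of 0.03, and none had a limma p under 0.05. Mme, neprilysin, a peptidase that breaks down angiotensin, endothelin and natriuretic peptides, read 5.76 in wild type 1 and 6.46, 6.63 and 5.96 in the knockout hearts. All 3 knockout values were higher, least in knockout 3. The log2 fold change was 0.59 (SE 0.27, 95% interval -0.05 to 1.23, limma unadjusted p = 0.0671, adjusted p = 0.881), and without knockout 3 it was 0.785. Nr3c2, the mineralocorticoid receptor through which aldosterone acts, gave 6.72 in wild type 1, 7.52 in knockout 1, 7.34 in knockout 2 and 6.71 in knockout 3. It thus had high and low arrays in the same places as Agtr1a. The log2 fold change was 0.47 (SE 0.31) at an adjusted p = 0.931 in limma, and 0.71 without knockout 3.

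Prcp, a carboxypeptidase that removes the last residue of angiotensin II, gave 6.89 on the wild type array, 6.56 and 6.91 on knockouts 1 and 2, and 7.69 on knockout 3, where Ace was also highest. Agtrap, a protein that binds the AT1 receptor and promotes its internalisation, read 7.57 in wild type 1 and 7.79, 7.74 and 7.73 in the knockout hearts, above the wild type on all 3 by at least 0.16 (limma adjusted p = 0.957). Atp6ap2, the (pro)renin receptor, read 7.71 against 7.23, 7.63 and 7.56, below it on all 3 (adjusted p = 0.957). Thop1 was the second gene with all knockout arrays below the wild type, by no more than 0.15. The aminopeptidases Enpep and Anpep, and Hsd11b2 and Cyp11b2 of steroid metabolism, had log2 fold changes from -0.17 to 0.04. Genes under the filter on dim values were not tested. Mas1, the receptor of angiotensin 1-7, read 4.04 in wild type 1 and 4.81, 4.26 and 4.35 in the knockout hearts, and the mast cell chymase gene Cma1, whose product also makes angiotensin II, read 3.90 against 4.20, 4.20 and 4.41. Agtr2, the AT2 receptor gene, read 3.46 against 3.51, 3.39 and 3.25, and the other genes under the filter, Ctsg and Cyp11b1, read between 3.84 and 4.31. Ren1, Agtr1b and Lnpep were not analysed here.

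Genes of the Gq pathway below the receptors (G protein, phospholipase C, protein kinase C, RGS and arrestin genes) had a median log2 fold change of 0.03. Of 27 tested, 6 were wholly lower and 11 wholly higher (22.2% and 40.7%, against 24.6% and 23.9% of all genes tested). None of the 27 had a limma p under 0.05. Arrb2, beta-arrestin 2, which uncouples these receptors, read 7.80 in wild type 1 and 7.17, 6.97 and 7.55 in the knockout hearts (log2 fold change -0.57, SE 0.25, unadjusted p = 0.0547, adjusted p = 0.876). Prkcd, protein kinase C delta, read 7.95 against 7.47, 7.38 and 7.82, and Prkce, protein kinase C epsilon, 7.58 against 8.23, 7.96 and 7.71. Plcb4, a phospholipase C beta, read 8.74 against 8.87, 9.20 and 9.16. Without knockout 3 there were 2 genes of this list lower and 2 higher at an unadjusted p under 0.05, 14.8% of the list against 10.6% of all genes tested in that fit. Without knockout 1 or 2 there were 0 in either direction, against 3.37% and 2.86%.

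Genes that angiotensin II and endothelin-1 are known to induce in heart cells read mostly lower in the knockout hearts. The list, which holds genes already known to differ in these arrays and is no independent evidence, had a median log2 fold change of -0.845. Of 20 tested, 14 were wholly lower and 1 wholly higher (70% and 5%, against 24.6% and 23.9% of all genes tested). By unadjusted p under 0.05 in limma, 9 were lower and 0 higher, where 4.05% and 1.68% of all genes tested were. After adjustment over all genes 0 passed. Leaving out knockout 1, 2 or 3 gave 8, 6 and 15 lower (40%, 30% and 75%), where all genes tested gave 2.41%, 2.11% and 6.43%. It also gave 1 higher without knockout 1 (Nox4) and 1 without knockout 3 (Myh7), genes named after their values were seen. The median difference from wild type 1 was -1.16 in knockout 1, -0.975 in knockout 2 and -0.36 in knockout 3. Ccl2, a chemokine that draws monocytes, read 7.35 in wild type 1 and 5.74, 5.53 and 6.12 in the knockout hearts (log2 fold change -1.55, limma adjusted p = 0.289). Timp1, an inhibitor of matrix proteases, read 11.15 against 7.34, 8.29 and 9.28, Nppb, B-type natriuretic peptide, 12.41 against 10.75, 11.34 and 11.52, and Myc 8.03 against 6.95, 7.0 and 7.15. Their adjusted p were 0.411, 0.516 and 0.333. The list holds no member of the peptide systems, and these genes also respond to stretch and inflammation.

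Markers of macrophages and smooth muscle cells also read lower in part. These lists too were chosen with earlier results of these data known and are no independent evidence. Of 9 macrophage markers 8 were wholly lower (88.9%, against 24.6% of all genes tested), with a median log2 fold change of -0.96. At an unadjusted limma p under 0.05, 5 were lower, where 4.05% of all genes tested were. After adjustment 0 passed. Their mean log2 level was 8.32 in wild type 1 and 7.28, 7.25 and 7.72 in knockouts 1, 2 and 3, and all 9 were above the filter. Itgam, the CD11b integrin subunit, stood at -1.59, Cd68 at -1.30, Fcgr1 at -1.21 and Mrc1 at -0.96. Of 8 smooth muscle and pericyte markers 4 were wholly lower and 1 wholly higher (50% and 12.5%, against 24.6% and 23.9% of all genes tested). At an unadjusted limma p under 0.05, 2 of the 8 were lower. Cnn1, calponin 1, read 7.36 in wild type 1 and 6.31, 6.76 and 6.65 in the knockout hearts, and Acta2, smooth muscle actin, 10.88 against 9.83, 10.43 and 10.10, while Myh11, smooth muscle myosin, read 7.80 against 8.12, 8.28 and 7.72. Tagln, transgelin, and Cspg4, the NG2 proteoglycan of pericytes, stood at -0.43 and -0.27 (limma adjusted p = 0.940 and 0.946). The list mean was 8.36 in wild type 1 and 8.05, 8.23 and 8.17 in the knockout hearts. Macrophages and smooth muscle cells both express endothelin or angiotensin genes, and their part in the values of Edn1, Ednrb, Ece1 and Agtr1a was not tested. Kit and Tpsb2, the mast cell markers above the filter, and the erythroid Alas2 and Slc4a1 had knockout values on both sides of the wild type.

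**Figure D4:**
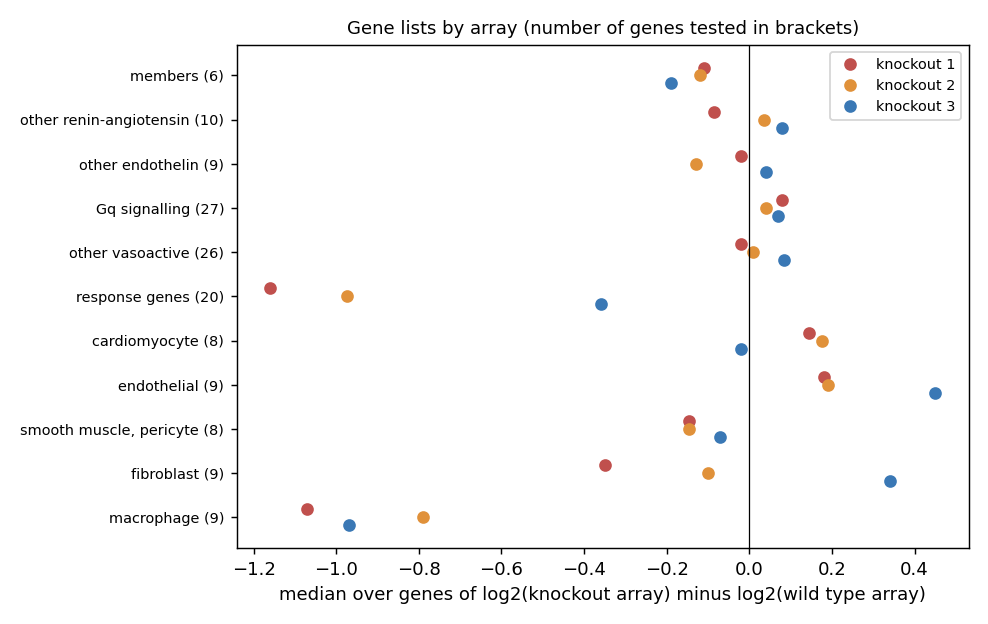
Median over genes of the log2 difference between each knockout array and the wild type array, for the members and 10 gene lists. The response genes lie between -1.16 and -0.36 and the macrophage markers between -1.07 and -0.79, whereas the members lie between -0.19 and -0.11.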

How the data were processed

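Total RNA from mouse heart was hybridised to 4 Affymetrix Mouse Gene ST arrays. The deposited values are log2 expression per probe set, made by the authors with Affymetrix Expression Console and RMA per the submitters' processing notes. The notes name no versions and no genome build. RMA gives arrays nearly the same distribution and compresses differences of dim genes, and scanner intensities were not analysed here.

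Of 35556 probe sets, 21789 had a single gene symbol in the platform annotation, and the brightest was kept per gene. Genes with a mean under 4.71, the 25th percentile of those probe sets, were left out, leaving 14914. Knockout was set against wild type by limma 3.58.1 (R 4.3.3; lmFit, eBayes, two-sided, Benjamini-Hochberg over all genes tested). The wild type array, alone in its group, borrows its spread from the knockout arrays (2 residual and 5.04 prior degrees of freedom). The smallest p of an exact permutation test here is 0.25, and the number of arrays limits precision.

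Named are the members, all other renin-angiotensin and endothelin genes, the 4 of smallest p in each further list, and the 5 nearest profiles of the 2 members with the widest range. Myh11, Nox4 and Myh7 were added after their values were seen. Of 167 list entries 151 matched a probe set. The members and lists were chosen with earlier results of these data known. Alternatives were renewed normalization, centring, filters, the probe set rule, variance models and leaving out each knockout array.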

Additional observations from a re-analysis of the deposited data

How the results depend on the processing

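For the 6 members, 66 fits were made, 11 alternatives each, and none passed an adjusted p of 0.05. In 63 the direction was that of the reported value. The sign turned for Agt without knockout 1 or 2 (-0.03 and -0.04, up to 0.21 without knockout 3) and for Ace without knockout 3 (-0.015, up to 0.29 without knockout 1). Edn1, Ednrb, Ece1 and Agtr1a kept their direction in all 11. The number of members at an unadjusted p under 0.05 was 0 in the reported fit and 2 without knockout 3 (Agtr1a and Edn1). It ran from 0 to 2 over the arrays left out. Of all genes tested, 5.73% were under that limit in the reported fit and 10.6% without knockout 3. Over all genes tested, 1 passed the adjusted threshold. It was 0 with renewed quantile normalization or with no filter, 3 with the filter at the median, 7 with an intensity trend, 9 with robust eBayes or with ordinary variance, and 0 without knockout 1, 2 or 3; the cause was not tested. At an unadjusted p under 0.05, 855 genes (5.73%) became 503, 427 and 1577 (3.37%, 2.86% and 10.6%) without knockout 1, 2 and 3. With 1 wild type array no alternative tests how typical that heart is. No paired analysis was possible because the groups share only replicate number 1.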

Other observations

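Other vasoactive systems gave a divided picture. The 26 tested genes were mostly of the adrenergic, vasopressin, kinin, adrenomedullin, nitric oxide, prostanoid, apelin and natriuretic receptor systems. Uts2 and Uts2r (urotensin), Vipr1 (vasoactive intestinal peptide), Npy (neuropeptide Y) and Tacr1 (tachykinin) were also among them. Of the 26 genes, 5 were wholly lower and 6 wholly higher (every knockout value under, or over, the wild type value). These were 19.2% and 23.1%, against 24.6% and 23.9% of all genes tested. The median log2 fold change of the 26 was 0.035. Tbxas1, thromboxane synthase, which makes a vasoconstrictor in platelets and macrophages, read 6.39 in wild type 1 and 5.37, 5.57 and 5.28 in the knockout hearts. Its log2 fold change of -0.98 (SE 0.19) had an unadjusted limma p of 0.00134 and an adjusted p of 0.370, and it stayed between -1.065 and -0.92 when a knockout array was left out. Ramp2, the subunit that makes the receptor Calcrl respond to the vasodilator adrenomedullin, read 8.93 against 9.34, 9.30 and 9.59 (log2 fold change 0.48, unadjusted p = 0.0428, adjusted p = 0.838), and Calcrl read 7.82 against 7.97, 8.32 and 8.83. Without knockout 1, 2 or 3 the unadjusted p of Ramp2 was 0.0756, 0.067 and 0.0578. Gucy1a1, a subunit of the nitric oxide receptor guanylate cyclase, read 6.40 against 6.89, 6.83 and 6.68 (adjusted p = 0.880). None of these passed adjustment over all genes.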
